A study of Mus musculus with 6 samples.

Results

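The 10 genes of the GATA and Tal1 transcription factor complex and its partners were followed in LSK cells that lack PU.1. The genes are *Gata1*, *Gata2*, *Tal1*, *Klf1*, *Gfi1b*, *Lmo2*, *Zfpm1*, *Nfe2*, *Lyl1* and *Ldb1*. They were chosen by name with earlier results of these data known, so the counts below are not an independent test of them. Every probe annotated to them in the deposited log2 table was used. Of the 10 genes, 9 had such a probe, out of 10553 genes with a named probe, and they had 11 probes out of 19750. *Zfpm1* was not analysed here. LSK cells are the lineage-negative, Sca-1-positive, c-Kit-positive fraction of the bone marrow, which holds the stem cells and multipotent progenitors. The 3 PU.1-deficient pools came from C57BL/6 mice with the genotype Spi1fl/fl MxCre+ and the 3 wild-type pools from Spi1+/+ MxCre+ mice, so that both genotypes carried the Cre transgene. Mice of both genotypes were 6 to 12 weeks old and had received 2 injections of polyIC, 3 days apart, each of 5 µg for every g of body weight. PolyIC switches on the Mx promoter, which responds to interferon and is not restricted to LSK cells. Each pool combined 15 to 20 mice at day 14 and was hybridized to 1 array.

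GATA factors bind DNA through zinc fingers at sites with the core GATA. Tal1 is a basic helix-loop-helix factor that pairs with E proteins and binds the E-box, and the adaptors Lmo2 and Ldb1 hold it together with a GATA factor in 1 complex. Gata2 and Tal1 act in blood stem cells, whereas Gata1, with its cofactor Zfpm1 and the CACCC-binding factor Klf1, acts in red cell and platelet precursors. Gata1 and PU.1 are known to bind each other and to oppose each other's activity, PU.1 favouring myeloid and lymphoid fates.

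*Klf1*, *Gata2*, *Gata1* and *Tal1* were lower where PU.1 was missing, whereas *Gfi1b*, *Lmo2*, *Ldb1*, *Lyl1* and *Nfe2* did not pass the test. The log2 fold change, PU.1-deficient minus wild type, was -3.02 for *Klf1*, -1.57 for *Gata2*, -1.56 for *Gata1* and -1.26 for *Tal1*. Intensities were compared on the log2 scale with the moderated statistics of *limma* over all 19750 probes, and the threshold was an adjusted p (Benjamini-Hochberg) of 0.05. Of the 11 probes, 4 were lower and 0 higher, beside 4.46% of all probes lower and 5.52% higher. Counted by genes, with the probe of the highest mean intensity for each gene, 4 of 9 were lower, beside 5.72% of all genes lower and 6.69% higher. At an unadjusted p under 0.05, 6 of the 9 genes were lower and 0 were higher, beside 14.6% of all genes lower and 12.3% higher. All 3 PU.1-deficient pools lay below all 3 wild-type pools for 6 of the 11 probes, beside 15.5% of all probes. The change was below 0 for 10 of the 11 probes, beside 54.3% of all probes. The median log2 fold change was -0.89 over the 11 probes and -0.04 over all probes. In a bulk sample, fewer cells of a type and less RNA per cell cannot be told apart. The sex of the mice, read from *Xist* as given below, followed genotype and cannot be told apart from it for any probe. Without wild-type pool 2 or without wild-type pool 3, 2 of the 11 probes were lower, beside 319 and 300 of all 19750 probes. Without PU.1-deficient pool 2 the number was 6, beside 886 of all probes. With no pool left out, 881 of all probes were lower.

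**Figure D1:**
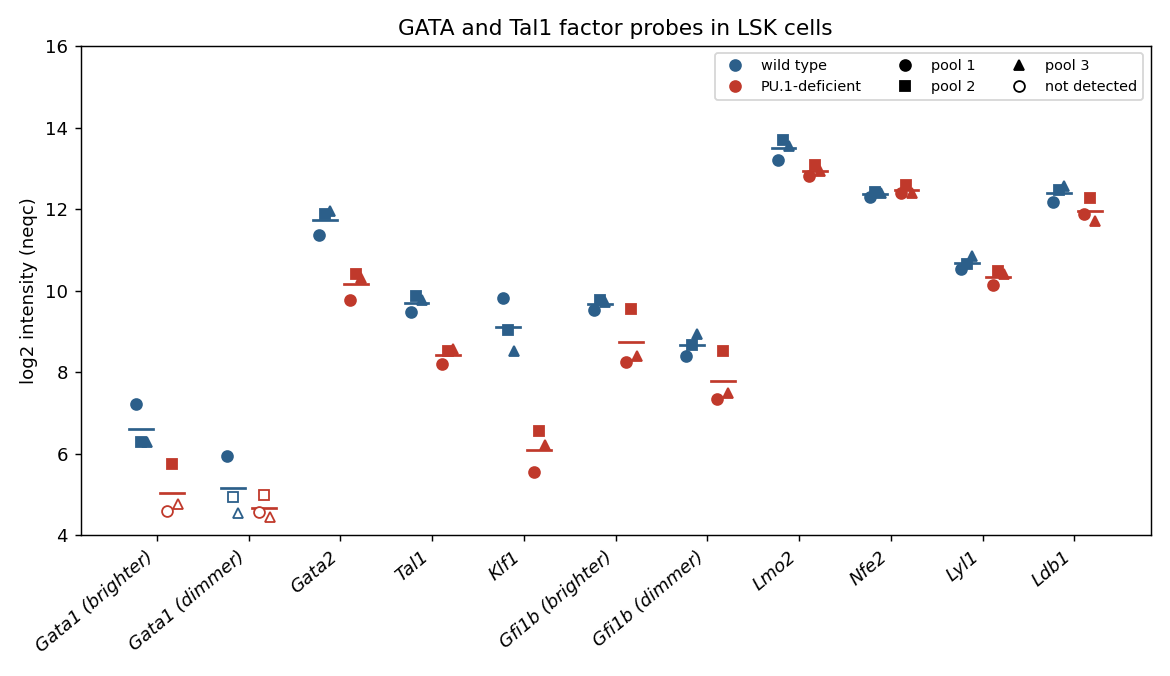
Log2 intensity (y axis) of the 11 probes of the GATA and Tal1 factors in each of the 3 wild-type pools (blue) and the 3 PU.1-deficient pools (red), with lines at the group means, a symbol for each pool number and open symbols where the probe was not detected. The groups are fully separated for *Klf1*, *Gata2*, *Tal1*, *Lmo2*, *Lyl1* and the brighter *Gata1* probe.

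To show what lies at the start of the genes that fell, the RefSeq promoter windows of *Gata1*, *Tal1* and *Klf1* are printed from the GRCm38.p6 annotation, 250 bases before to 50 bases after the annotated start. Capitals mark GATAA, the GATA core followed by A, and GAGGAA, a core bound by PU.1, on either strand. GATA followed by another base was not searched for, and it stands in small letters in each window printed. *Gata1* lies at chrX:7967861-7968160 on the minus strand, *Tal1* (the upstream of its 2 windows) at chr4:115056176-115056475 on the plus strand and *Klf1* at chr8:84901732-84902031 on the plus strand.
Gata1: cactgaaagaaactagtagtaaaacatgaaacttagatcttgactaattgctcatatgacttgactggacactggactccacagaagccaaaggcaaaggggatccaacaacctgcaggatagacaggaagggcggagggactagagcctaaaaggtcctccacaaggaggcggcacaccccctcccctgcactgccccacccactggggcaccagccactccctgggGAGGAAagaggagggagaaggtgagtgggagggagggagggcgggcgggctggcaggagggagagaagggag
Tal1: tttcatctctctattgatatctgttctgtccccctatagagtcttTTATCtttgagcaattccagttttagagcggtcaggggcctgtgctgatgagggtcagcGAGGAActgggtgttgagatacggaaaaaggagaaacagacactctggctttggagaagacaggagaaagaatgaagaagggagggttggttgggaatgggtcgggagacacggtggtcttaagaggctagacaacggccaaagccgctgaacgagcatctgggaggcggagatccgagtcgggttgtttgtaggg
Klf1: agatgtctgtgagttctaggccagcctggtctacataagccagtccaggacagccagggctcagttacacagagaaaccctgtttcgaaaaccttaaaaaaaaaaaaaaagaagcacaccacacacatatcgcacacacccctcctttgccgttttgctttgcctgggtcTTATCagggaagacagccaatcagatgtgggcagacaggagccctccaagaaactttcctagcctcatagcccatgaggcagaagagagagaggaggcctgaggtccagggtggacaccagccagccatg
In these windows the first base is position -250. The *Klf1* window holds 1 GATAA, read on the opposite strand, with its leftmost base at -80, and an E-box of the form CANNTG at -59. The upstream *Tal1* window holds 1 GATAA on the opposite strand at -205 and GAGGAA at -146. The *Gata1* window holds GAGGAA at -22 and no GATAA, though it holds GATA followed by another base. Both of these windows hold an E-box as well, at -198 in *Gata1* and at 11 in *Tal1*. The 2 windows of *Gata2* and the other window of *Tal1* hold neither GATAA nor GAGGAA, and 1 of the *Gata2* windows holds an E-box, at 18. Windows were found for 8 of the 10 genes, 12 windows in all, and *Lmo2* and *Nfe2* had none in the table. GATAA occurred in 4 of the 12, beside 25.4% of all 32851 windows, and GAGGAA in 4 of the 12, beside 28.3%. CANNTG occurred in 7 of the 12, beside 72.3%. A match of letters describes the sequence and is not a site shown to be bound, and the motifs do not overlap in the windows printed.

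*Gata2*, the GATA factor of stem and early progenitor cells, had a log2 intensity of 11.36, 11.87 and 11.96 in wild-type pools 1 to 3. In PU.1-deficient pools 1 to 3 it was 9.76, 10.42 and 10.31. The lowest wild-type pool lay above the highest PU.1-deficient pool, and the probe was detected in all 6 pools. This amounted to a log2 fold change of -1.57 (standard error 0.25, 95% interval -2.16 to -0.97, adjusted p = 0.00974), which leaves 33.8% of the wild-type intensity. The adjusted p was 0.0508 without wild-type pool 2 and 0.0525 without wild-type pool 3.

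*Gata1*, which takes the place of *Gata2* at many genes as red cell and platelet precursors mature, lay near background. The brighter of its 2 probes had log2 intensities of 7.23, 6.29 and 6.30 in the wild-type pools and was detected in all 3. In the PU.1-deficient pools it had 4.61, 5.75 and 4.77 and was detected in 1, pool 2, which came nearest to the wild-type pools. The log2 fold change was -1.56 (standard error 0.38, 95% interval -2.47 to -0.66, adjusted p = 0.0464). That call depended on single pools. When a PU.1-deficient pool was left out, the adjusted p was 0.152 (pool 1) or 0.154 (pool 3). For the wild-type pools it was 0.0789 (pool 1), 0.0973 (pool 2) or 0.103 (pool 3). With an offset of 50 in place of 16 in the background correction the log2 fold change was -0.96 and the adjusted p 0.0569.
The dimmer *Gata1* probe was detected in wild-type pool 1 alone. Its log2 intensities were 5.94, 4.95 and 4.56 in the wild-type pools and 4.58, 5.00 and 4.46 in the PU.1-deficient pools. The groups overlapped and the probe did not pass (adjusted p = 0.526). No PU.1-deficient pool detected it, and its 95% interval, from -1.32 to 0.38, crossed 0. Neither the size nor the direction of its change is settled. Both *Gata1* probes were brightest in wild-type pool 1. *Gata1* lies on the X chromosome. *Xist*, the RNA that coats the inactive X of female cells, had log2 intensities of 9.93, 10.01 and 11.06 in the PU.1-deficient pools and of 4.48, 4.48 and 5.17 in the wild-type pools, of which pool 3 alone was called detected. Its other 3 probes were detected in every PU.1-deficient pool and in no wild-type pool. The *Xist* level therefore followed genotype in all 6 pools. The sex of the mice that it marks cannot be told apart from genotype in the values of *Gata1* or of any other probe.

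*Tal1*, the helix-loop-helix factor needed to form blood stem cells, had log2 intensities of 9.47, 9.86 and 9.77 in the wild-type pools. In the PU.1-deficient pools it had 8.20, 8.53 and 8.57. The groups did not overlap, and the SD was 0.20 in both. The difference of the means was -1.26 (standard error 0.19, 95% interval -1.72 to -0.81, adjusted p = 0.00756), or 2.40-fold lower. It stayed past the threshold under all 18 alternative settings, with adjusted p from 0.000144 to 0.0470.
*Lyl1*, the closest relative of *Tal1*, had 10.52, 10.65 and 10.85 in the wild-type pools and 10.14, 10.48 and 10.40 in the PU.1-deficient pools. Its groups did not overlap either, but the log2 fold change of -0.33 (standard error 0.18, 95% interval -0.76 to 0.09) did not pass (adjusted p = 0.338). Taken within each pool, the log2 intensity of *Tal1* minus that of *Lyl1* moved by -0.93 between the genotypes, with p = 0.1 in a two-sided exact permutation test of 3 against 3 pools, the smallest p that this design allows, and 0.15 after adjustment over the 3 pairs of related genes compared. The pairs were chosen after the values were seen.

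*Klf1*, the zinc finger activator of globin and red cell membrane genes, moved more than any other of the 9 genes. Its log2 intensities were 9.82, 9.03 and 8.51 in the wild-type pools. In the PU.1-deficient pools they were 5.55, 6.55 and 6.21. The gap between the groups, from 6.55 to 8.51, was wider than the spread inside either group. The fit gave -3.02 (standard error 0.39, 95% interval -3.93 to -2.11, adjusted p = 0.00393), or 8.09-fold lower, and 12.4% of the wild-type intensity was left. *Klf1* was detected in all 6 pools and stayed past the threshold under all 18 alternative settings, with adjusted p from 7.6e-05 to 0.0214. The size of its change depended on the background correction. The log2 fold change was -2.51 with an offset of 50 and -2.07 without background correction.

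*Gfi1b*, a repressor of red cell and platelet precursors that recruits histone demethylase, had 2 probes that gave like values. The brighter probe had log2 intensities of 9.53, 9.77 and 9.73 in the wild-type pools and 8.25, 9.54 and 8.39 in the PU.1-deficient pools. PU.1-deficient pool 2 lay among the wild-type pools, so that the groups overlapped, while pools 1 and 3 lay below them. For the brighter probe the change was -0.95 (standard error 0.34, adjusted p = 0.153), and that of the dimmer probe was -0.89 (standard error 0.33, adjusted p = 0.164). Without PU.1-deficient pool 2 both probes passed, at -1.35 (adjusted p = 0.00856) and -1.25 (adjusted p = 0.0195).
Its relative *Gfi1*, a repressor of granulocyte development, rose by 2.44 on the log2 scale (standard error 0.18, adjusted p = 0.000385). The log2 difference of *Gfi1b* minus *Gfi1* moved by -3.39 (exact permutation p = 0.1, two-sided, the smallest possible, and 0.15 after adjustment over the 3 pairs). The third pair was *Gata1* and *Gata2*, for which no difference is given, since the *Gata1* probe was undetected in PU.1-deficient pools 1 and 3. Of the 10 relatives of the factors on the list, 3 had a probe, and 1, *Gfi1*, passed, beside 6.69% of all genes higher.

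*Lmo2*, the LIM adaptor that joins Tal1 to a GATA factor, had log2 intensities of 13.20, 13.70 and 13.55 in the wild-type pools and 12.82, 13.07 and 12.93 in the PU.1-deficient pools. The groups did not overlap, but the log2 fold change of -0.55 (standard error 0.19, 95% interval -1 to -0.1) did not pass (adjusted p = 0.138). *Ldb1*, which binds Lmo2 and can pair with itself to bring distant sites together, had 12.17, 12.47 and 12.57 against 11.88, 12.26 and 11.70. PU.1-deficient pool 2 lay above wild-type pool 1, and the log2 fold change was -0.46 (standard error 0.21, 95% interval -0.96 to 0.04, adjusted p = 0.257).
*Nfe2*, the leucine zipper factor that pairs with small Maf proteins in platelet and red cell precursors, had 12.30, 12.42 and 12.39 in the wild-type pools and 12.39, 12.59 and 12.40 in the PU.1-deficient pools. It was the only member whose log2 fold change was above 0, at 0.09 (standard error 0.16, 95% interval -0.28 to 0.46, adjusted p = 0.827). With PU.1-deficient pool 2 and wild-type pool 1 both left out it was -0.01.

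**Figure D2:**
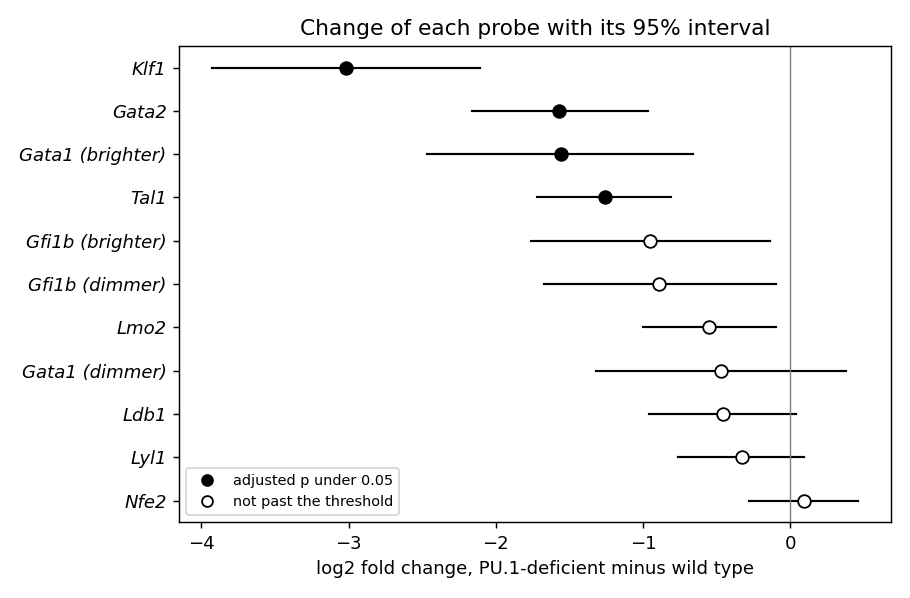
Log2 fold change, PU.1-deficient minus wild type (x axis), of each of the 11 probes, with the 95% interval from the *limma* fit as a line and filled points where the adjusted p was under 0.05. *Klf1* lies farthest from 0 at -3.02, and the intervals of *Ldb1*, *Lyl1*, *Nfe2* and the dimmer *Gata1* probe cross 0, the last being undetected in all PU.1-deficient pools, so that its point rests on background.

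PU.1-deficient pool 2 had the highest value of its genotype in 10 of the 11 probes, and in 45.3% of all probes. Its array had the fewest detected probes of all arrays, 15639, and the lowest median intensity, 89.5. Whether this bears on its place among the pools was not tested. PU.1-deficient pool 1 had the lowest in 9 of the 11, and in 37.9% of all probes. Wild-type pool 1 had the lowest value of its genotype in 8 of the 11 probes, and in 49% of all probes. It had the highest in the other 3, both probes of *Gata1* and that of *Klf1*, and in 35% of all probes, so that it lay at an end of its genotype in most probes of the arrays.
The probes most like *Gata1* over the 6 pools, by Pearson r among 11602 probes detected in every pool, were those of *Gins1* (0.998), *Clta* (0.9929) and *Ctse* (0.989). For *Gata2* they were *Bcl11a* (0.9994), *Twnk* (0.9991) and *Ddah2* (0.9984), and for *Tal1* they were *Stau2* (0.9998), *Gm5111* (0.9989) and *Mef2c* (0.9987). These correlations describe 6 points that share the genotype difference and the normalization, and the highest r among so many probes is high by choice. The *Gata1* probe itself was undetected in PU.1-deficient pools 1 and 3, so that its correlations rest in part on background.

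**Figure D3:**
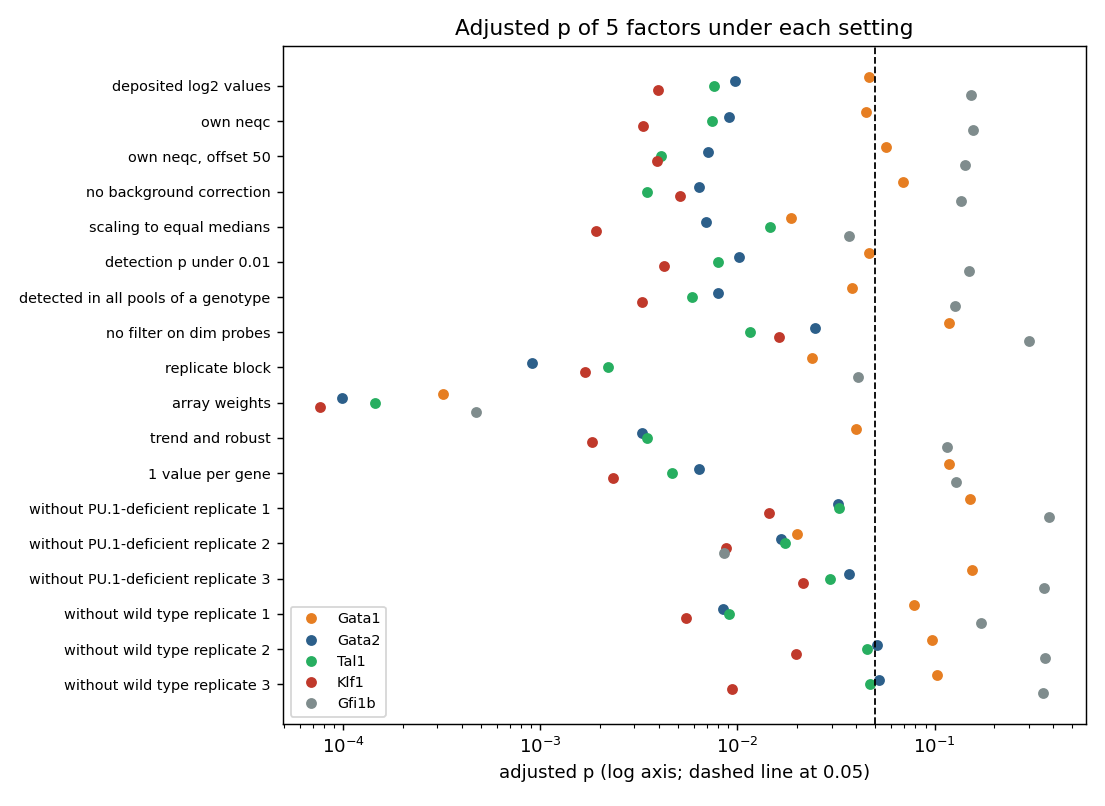
Adjusted p (x axis, log scale) of the brightest probe of *Gata1*, *Gata2*, *Tal1*, *Klf1* and *Gfi1b* under the deposited log2 values and each other setting (y axis), with a dashed line at 0.05. *Klf1* and *Tal1* lie left of the line throughout, *Gata2* crosses it without wild-type pool 2 or 3, and *Gata1* and *Gfi1b* lie on both sides.

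The genes that work with the factors did not pass the test. Of 19 DNA-binding and adaptor partners, such as the E proteins that pair with Tal1 and the small Maf proteins that pair with Nfe2, 0 were higher and 0 lower by *limma*, and 0 reached an unadjusted p under 0.05 in either direction. Their log2 fold changes ran from -0.46 to 0.34 with a median of 0.02. Over all genes 5.72% were lower and 6.69% higher, and at an unadjusted p under 0.05 14.6% and 12.3%. Of 14 corepressor subunits, through which Gfi1b, Tal1 and Zfpm1 are known to repress genes, 12 had a probe, and 0 were higher and 0 lower, with 0 at an unadjusted p under 0.05. Their log2 fold changes ran from -0.47 to 0.36 with a median of -0.13. Among the dimmer probes of these genes, 1 for *Rbbp7*, a histone-binding subunit, was lower with a log2 fold change of -1.21 (adjusted p = 0.0469). It was singled out after its values were seen, and the other 3 *Rbbp7* probes gave -0.17 to -0.47 with adjusted p from 0.896 to 0.964. Their standard errors were 1.18 to 1.31, so they do not settle whether *Rbbp7* changed. The brightest of them gave the -0.47 at the end of the corepressor range, with a 95% interval of -3.56 to 2.61.

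Among red cell and platelet genes known to be bound or driven by the factors, those that passed the test were lower, with the exception of *E2f2*. Of 24 erythroid genes, 16 had a probe, and 8 were lower and 1 higher, beside 5.72% of all genes lower and 6.69% higher. Their median log2 fold change was -1.56. This list and the other gene lists were chosen with earlier results of these data known, so their counts are not an independent test. *Car1*, a carbonic anhydrase of red cells, had log2 intensities of 12.11, 10.18 and 9.78 in the wild-type pools and 5.70, 5.28 and 7.41 in the PU.1-deficient pools, and changed by -4.56 (standard error 0.74, adjusted p = 0.00968). As for *Klf1* and *Gata1*, wild-type pool 1 was the brightest. In PU.1-deficient pool 2 the *Car1* probe was barely detected (detection p 0.0492). The size of its change depended on the processing. The log2 fold change was -2.87 with array weights and -3.44 without background correction. With single pools left out it ran from -3.85 (wild-type pool 1) to -5.20 (PU.1-deficient pool 3).
*Aqp1*, a water channel, changed by -3.76 on the log2 scale (adjusted p = 0.00317), and its other 2 probes gave -3.50 and -3.53. *Hba-a1*, an alpha globin gene with a near-identical copy that its probe may also read, changed by -3.20 (adjusted p = 0.00582). *Epor*, the erythropoietin receptor, had 7.58, 6.95 and 6.78 against 5.03, 5.19 and 5.02, a log2 fold change of -2.02 (adjusted p = 0.00276). It was detected in 1 of the 3 PU.1-deficient pools.
*Kel*, a red cell surface antigen, was detected in no PU.1-deficient pool and was at least 2.87-fold lower (adjusted p = 0.00598), a bound set against the lowest detected signal of each array. *Ermap*, a membrane protein of red cell precursors, had a log2 fold change of -2.21 (adjusted p = 0.0453) by its brighter probe and of -0.39 (adjusted p = 0.305) by the other. The call was lost when PU.1-deficient pool 1 (adjusted p = 0.112), 2 (0.109) or 3 (0.119) or wild-type pool 2 (0.112) was left out, and with an offset of 50 the change was -1.44 (adjusted p = 0.0837).
The 1 gene that rose was *E2f2*, a cell cycle factor of red cell precursors, by 1.26 (adjusted p = 0.0458), and its other probe gave 1.31 (adjusted p = 0.0735). The call of *E2f2* was lost when any of these pools was left out: PU.1-deficient pool 2 (adjusted p = 0.101) or 3 (0.149), or wild-type pool 1 (0.0886), 2 (0.0513) or 3 (0.162).

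Of 18 megakaryocyte genes, 12 had a probe, and 8 were lower and 0 higher, beside 5.72% of all genes lower and 6.69% higher. Their median log2 fold change was -1.48. At an unadjusted p under 0.05 the counts were 8 and 0, beside 14.6% of all genes lower and 12.3% higher. *Pf4*, the platelet factor, had log2 intensities of 12.10, 12.03 and 11.90 in the wild-type pools and 8.63, 9.03 and 8.08 in the PU.1-deficient pools, and changed by -3.43 (standard error 0.26, adjusted p = 0.000458). The groups lay far apart for their spread. *Vwf*, von Willebrand factor, had 8.42, 8.72 and 8.79 against 4.76, 6.23 and 5.38, a log2 fold change of -3.19 (adjusted p = 0.00237).
The platelet glycoproteins *Gp5* (-2.73), *Gp9* (-1.99) and *Gp1bb* (-1.57) and the receptor *Treml1* (-1.81) were also lower, with adjusted p from 0.00231 to 0.0379. PU.1-deficient pool 2 was the highest of its genotype for *Pf4*, *Vwf*, *Gp5*, *Treml1* and *Gp1bb*, as it was for *Gfi1b*. The number of lower genes was 4 without PU.1-deficient pool 1 or 3, and 4 without wild-type pool 2 or 3. Of all 19750 probes, 414 and 442 were lower in the first 2 of these settings, and 319 and 300 in the others. With no pool left out the number was 881.

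In the third set of genes bound by GATA factors, those of mast cells and basophils, the genes that passed were higher. Of 12 genes, 8 had a probe, and 2 were higher and 0 lower, beside 6.69% of all genes higher and 5.72% lower. Their median log2 fold change was 0.34. At an unadjusted p under 0.05 the counts were 2 higher and 2 lower, beside 12.3% of all genes higher and 14.6% lower. *Mcpt8*, a basophil protease, had log2 intensities of 7.84, 7.40 and 7.97 in the wild-type pools and 11.58, 11.59 and 11.24 in the PU.1-deficient pools, and changed by 3.73 (standard error 0.21, adjusted p = 0.000162). *Cpa3*, a mast cell carboxypeptidase, had 10.56, 9.75 and 10.35 against 11.67, 11.79 and 11.28, a log2 fold change of 1.37 (adjusted p = 0.0179). Of the other 2 *Cpa3* probes, 1 gave 1.35 (adjusted p = 0.0124) and the other 1.44 (adjusted p = 0.434). The call of *Cpa3* was lost when PU.1-deficient pool 1 (adjusted p = 0.0715) or wild-type pool 2 (0.0575) or 3 (0.065) was left out. The other 6 genes on the list did not pass.

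**Figure D4:**
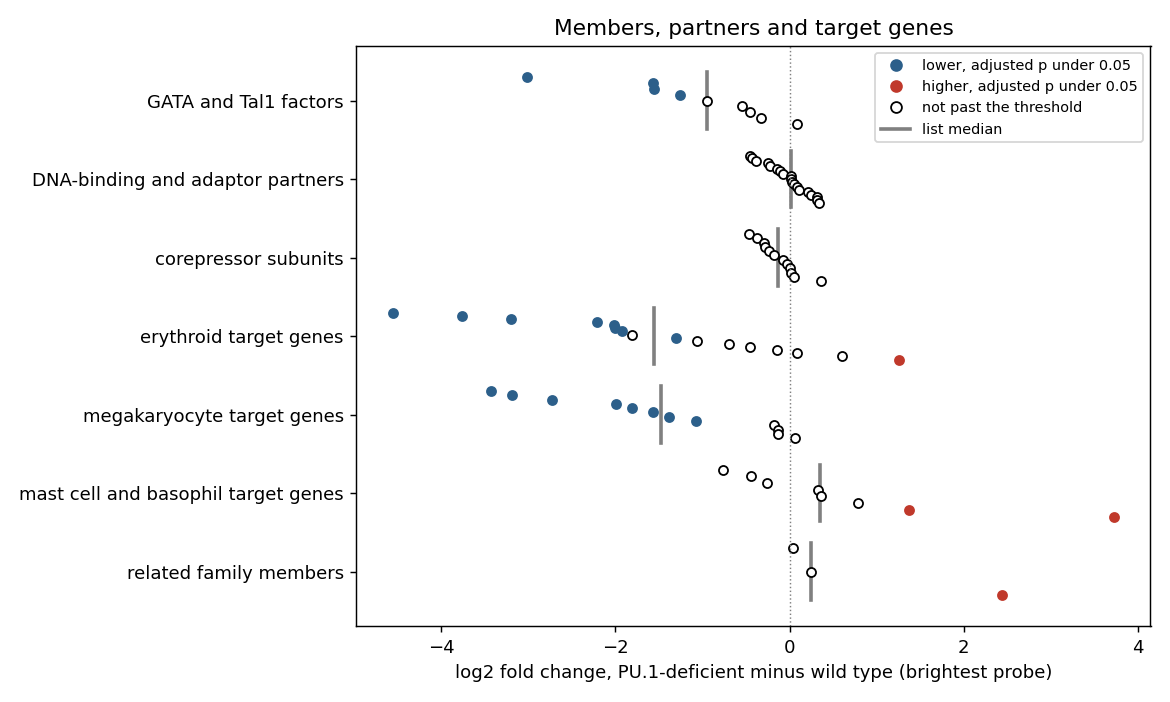
Log2 fold change, PU.1-deficient minus wild type (x axis), of the brightest probe of each gene, by list (y axis): the GATA and Tal1 factors, their partners, corepressors and target genes, and their relatives. Filled points passed the threshold (blue lower, red higher), open points did not, and grey bars are list medians, which are -1.56 for erythroid, -1.48 for megakaryocyte and 0.34 for mast cell and basophil genes.

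Across the series, 1090 probes were higher and 881 lower, and 55.3% of these were higher. With scaling to equal medians, under which the median of all probes was -0.21, the counts were 526 and 893, and 37.1% were higher. *Klf1*, *Gata2*, *Tal1* and the brighter *Gata1* probe lay below that median and were called lower there too. *Spi1*, which encodes PU.1, had log2 intensities of 8.54, 8.51 and 8.69 in the wild-type pools and 6.62, 5.80 and 6.00 in the PU.1-deficient pools (adjusted p = 0.00137). By the study's account the *Spi1* probe lies in the floxed exon. The LSK marker *Kit* was detected in every pool, at 12.44 to 12.67 in wild-type and 11.87 to 12.27 in PU.1-deficient pools (adjusted p = 0.202), and *Ly6a* (Sca-1) had no probe. For the marker lists that follow, the shares of all genes were 5.72% lower and 6.69% higher. Of the 4 LSK markers with a probe 2, *Cd34* (-1.66) and *Slamf1* (at least 1.36-fold), were lower. All 4 had every PU.1-deficient pool below every wild-type pool, beside 15.5% of all probes. The summed log2 level of the 4 was 12.12 to 12.39 in PU.1-deficient and 12.80 to 13.02 in wild-type pools. Of 9 neutrophil markers 7 were higher, with a summed log2 level of 16.89 to 17.01 in PU.1-deficient and 14.66 to 15.28 in wild-type pools. Of 7 red cell markers 3 had a probe, 2 of them, *Hba-a1* and *Slc4a1*, were lower, and the summed log2 level was 6.88 to 8.18 against 9.95 to 10.86. *Hba-a1* and *Slc4a1* were also counted among the lower erythroid genes, and *Slamf1* among the lower megakaryocyte genes, so these are the same values. The defining markers *Alas2* and *Hbb-b1* had no probe. Of 7 markers of the lineage gate 1, *Ptprc*, had a probe, and it did not pass. The part of these other cells in the lower *Klf1*, *Gata1* and red cell values was not tested.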

How the data were processed

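RNA of 6 pools of LSK cells, 3 PU.1-deficient and 3 wild type as their labels give, was hybridized to Illumina MouseWG-6 arrays of 45281 probes. Bead intensities were deposited with a detection p-value for each probe, and in that table the column headings of intensities and detection values are exchanged, as the values show. The deposited log2 values (19750 probes) were made by the authors with neqc in *limma*, which corrects background and normalizes by quantiles, and undetected probes were then removed. A repeat of neqc from the intensities (offset 16) differed from the deposited log2 values by at most 0.026. Of the probes with deposited log2 values, 79 were detected in no pool, and 2448 probes detected in at least 1 pool were outside it.

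The deposited log2 values were fitted with lmFit and eBayes (*limma* 3.58.1, R 4.3.3), with no covariate and p-values adjusted over all probes. Genes were named through GEO's platform annotation, updated by Entrez ID: 16548 probes had 1 gene name, 9 several and 3193 none. A probe was called detected at a detection p under 0.05. Where a probe was undetected in a whole group, a lower bound of the fold was set against the lowest detected signal. The script was tested on simulated data. Arrays had median intensities of 89.5 to 116, with 15639 to 18174 probes detected, and the number of arrays limits the precision. Every probe of the 10 genes was named, and from each list the called genes, at most the 6 that moved most. The members and the lists were chosen with earlier results of these data known. Alternatives were other background corrections, scalings and filters, a replicate block, array weights, a trended robust fit, 1 value per gene and each pool left out. Promoters came from RefSeq tables (GRCm38.p6).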

Additional observations from a re-analysis of the deposited data

How the results depend on the processing

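*Klf1* and *Tal1* kept their call under all 18 alternatives and *Gata2* under 16, whereas the brighter *Gata1* probe lost it under 9. With array weights, 3616 probes were higher and 4622 lower, and 9 of the 11 probes (8 of 9 genes) of the GATA and Tal1 factors were lower. With PU.1-deficient pool 2 and wild-type pool 1 both left out, a setting chosen after seeing the data, the counts were 2917, 3041, 8 and 7, and *Nfe2* reversed to -0.01. Scaling to equal medians gave 526 higher. Leaving out each pool in turn gave 606 to 1025 higher and 300 to 1114 lower probes, 2 to 6 lower probes and 2 to 5 lower genes among the factors, 0 to 1 higher erythroid, 4 to 8 lower megakaryocyte, 0 to 1 lower and 1 to 3 higher mast cell and basophil genes. The cause of these changes was not tested.

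With array weights the partners had 1 lower and 3 higher genes, the corepressors 1 and 1, the erythroid genes 3 higher, and the mast cell and basophil genes 2 lower and 4 higher. Without both pools these counts were 1 and 3, 1 and 1, 2 higher, and 1 lower. Higher erythroid genes numbered 0 with equal medians or with no filter on dim probes, where lower megakaryocyte genes numbered 4. Without background correction 1 mast cell and basophil gene was lower, and with 1 value per gene 1 was higher.

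The replicate numbers were not taken as pairs, since the labels do not state that they pair. Same-numbered pools deviated from their group means with correlations of 0.74, 0.64 and -0.16, and PU.1-deficient pool 3 did not correlate best with its own number. Deviations within a genotype sum to 0, so these correlations are tied together and do not settle whether the pools were paired. With the replicate number as a block, 1670 probes were lower, the brighter *Gfi1b* probe passed (-0.95, adjusted p = 0.0409), 2 erythroid genes were higher and 1 mast cell and basophil gene was lower. *Gfi1b* (both probes) also passed with equal medians, array weights, without PU.1-deficient pool 2 and without both pools, *Lmo2* with array weights, the trended robust fit and without both pools, *Ldb1* with array weights and without both pools, and *Lyl1* with array weights. *Gata1* was near background, which limits the size of its change.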
